A study of Mus musculus with 4 samples.

Results

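The 10 genes described here are the heart muscle genes Nkx2-5, Mef2c, Myh6, Myh7, Myl7, Myl4, Tnnt2, Tnni1, Actc1 and Actn2. They were chosen by name, and all 10 are among the 24421 gene rows of the count files. The data are 4 Illumina TruSeq libraries of R1 cells, an established line of mouse embryonic stem cells (ESCs), with 2 libraries of Undiff and 2 of Day4. Undiff was harvested before retinoic acid (RA), a vitamin A metabolite, was added, and the methods describe it as ESCs kept with leukaemia inhibitory factor while the labels describe it as embryoid bodies. Day4 was harvested after 4 days with RA, given to embryoid bodies that had formed for 4 days without leukaemia inhibitory factor. No Day4 sample without RA was analysed here, so that RA, the time in culture and the loss of leukaemia inhibitory factor cannot be told apart. By the description in the methods, the forming of embryoid bodies is a further difference that cannot be told apart from these. According to the methods, the biological replicates were grown and treated separately. The labels name no sorting or purification of heart muscle cells.

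Heart muscle contracts when thick filaments of myosin pull on thin filaments of actin. The pull is switched on by calcium through the troponin complex on the thin filament, and the thin filaments are anchored in the Z disc by alpha-actinin. Transcription factors such as NKX2-5, GATA4, TBX5, HAND2 and MEF2C act before and during the assembly of these filaments. Several filament proteins exist as isoforms from separate genes, some of them typical of the atria, of the ventricles or of the embryonic heart.

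Of the 10 genes, 5 were DEGs with higher levels in Day4 (Mef2c, Tnni1, Tnnt2, Myl4 and Actc1), 3 were DEGs with lower levels (Myh6, Actn2 and Myh7) and 2 were not DEGs (Myl7 and Nkx2-5). The thresholds for a DEG were those of the study, with an adjusted p no higher than 0.05 in edgeR's quasi-likelihood test over all 19891 genes with a count. In addition, the log2 fold change had to reach 1 in size, and the normalized count had to average 5 or more. By the same rule 22.2% of all genes tested were higher in Day4, 20.6% were lower, and 42.8% were DEGs in either direction. The 2 libraries of one state lay apart from those of the other for 8 of the 10 genes, compared with 85.4% of all genes tested, so that the share of members without overlap was near that of any gene. The median log2 fold change was 1.21 over the 10 genes, or 0.82 with Nkx2-5 at the bound that its counts allow, compared with -0.03 over all genes tested. In bulk RNA, a lower level in fewer cells and a lower level per cell cannot be told apart.

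**Figure D1:**
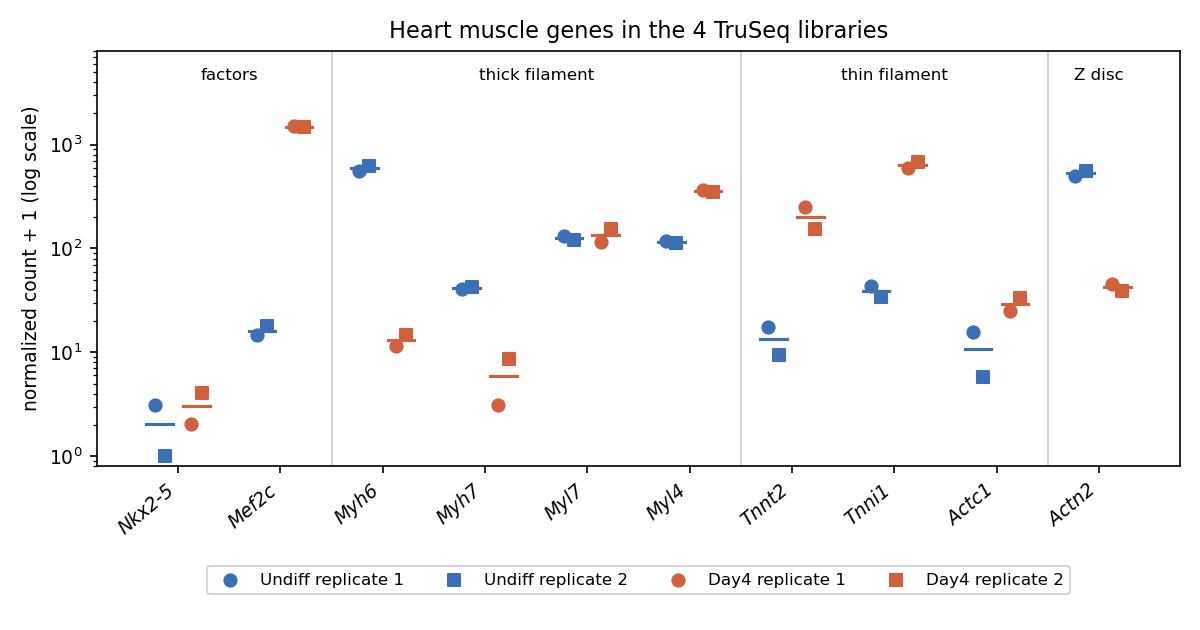
Normalized counts plus 1 on a log axis for each of the 10 genes, ordered by role, with 1 point for each library and a bar at the mean of each state (blue, Undiff; orange, Day4; circle, replicate 1; square, replicate 2). Mef2c, Tnni1, Tnnt2, Myl4 and Actc1 lie higher in both Day4 libraries, Myh6, Myh7 and Actn2 lie lower, and the libraries of Myl7 and Nkx2-5 overlap.

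The sequence before the start of each gene is where its promoter lies, and 4 of the starts are shown because they carry a match to the M-CAT element, the hexamer CATTCC bound by TEAD factors, in a gene that rose, a gene that fell or one that was not a DEG. Sequences are the 250 bases before a RefSeq start on GRCm38.p6, written 5′ to 3′ on the strand of the gene, and only starts whose window does not reach into an annotated UTR are shown. Capitals mark matches on either strand to CATTCC, to the TATA box TATAAA, to the GATA motif AGATAA and to the CArG box, the site of serum response factor. The Mef2c window is chr13:83503784-83504033 (plus strand), that of Tnnt2 is chr1:135836084-135836333 (plus strand), that of Myl7 is chr11:5898783-5899032 (minus strand) and that of Myh7 is chr14:54994627-54994876 (minus strand).

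Mef2c: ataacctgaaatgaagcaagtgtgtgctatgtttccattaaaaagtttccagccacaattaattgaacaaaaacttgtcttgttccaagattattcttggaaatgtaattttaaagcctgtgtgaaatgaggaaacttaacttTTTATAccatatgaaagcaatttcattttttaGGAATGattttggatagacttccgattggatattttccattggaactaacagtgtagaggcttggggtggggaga

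Tnnt2: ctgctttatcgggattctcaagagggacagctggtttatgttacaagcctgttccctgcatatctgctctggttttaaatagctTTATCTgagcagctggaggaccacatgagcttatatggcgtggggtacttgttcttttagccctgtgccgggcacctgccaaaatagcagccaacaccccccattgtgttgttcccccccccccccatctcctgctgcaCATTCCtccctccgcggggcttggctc

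Myl7: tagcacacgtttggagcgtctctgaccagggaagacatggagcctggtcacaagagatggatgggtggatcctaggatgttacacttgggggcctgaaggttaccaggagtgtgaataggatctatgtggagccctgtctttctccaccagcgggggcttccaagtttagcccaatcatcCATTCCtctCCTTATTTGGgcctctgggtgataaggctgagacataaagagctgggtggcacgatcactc

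Myh7: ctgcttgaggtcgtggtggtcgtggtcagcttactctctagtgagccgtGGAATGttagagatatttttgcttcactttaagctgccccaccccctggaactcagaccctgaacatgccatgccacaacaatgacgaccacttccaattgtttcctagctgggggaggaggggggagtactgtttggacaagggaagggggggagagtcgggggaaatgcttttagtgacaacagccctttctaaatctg

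CATTCC lay between 27 and 22 bases before the start in Tnnt2, and between 70 and 65 bases before it in Myl7. On the opposite strand it lay between 75 and 70 bases before the start in Mef2c and between 201 and 196 bases before it in Myh7. With Myh6, where it lay between 206 and 201 bases before the start on the opposite strand, 5 of the 10 genes held it, in 5 of their 15 annotated starts. Of the 32851 mouse promoter windows of the same length, 12.6% held it. The 5 genes comprise 2 that rose, 2 that fell and Myl7, which was not a DEG. AGATAA was found before 1 of the 10 genes (Tnnt2) and in 9.99% of all windows. TATAAA was found before 1 gene (Mef2c) and in 12.4% of windows. The retinoid motif AGGTCA was found before Mef2c and Actn2, at other starts than the one shown for Mef2c, and in 14.0% of windows. The NKX motif TNAAGTG was found before Myh7 and in 10.1% of windows, and the E box CANNTG before 8 genes and in 66.2% of windows. The CArG box was found before Myl7 and Actc1 and in 1.47% of windows, and the MEF2 site before none of the 10 genes and in 1.69% of windows. A gene can have more than 1 start, whereas the shares of windows count each start. Counted by start, the matches lay in 1 of the 15 starts for AGATAA, 2 for TATAAA and 3 for AGGTCA. For TNAAGTG the number was 1, for CANNTG 12 and for the CArG box 2. These matches are letters in a window of fixed length, and binding was not measured. In Myl7 CATTCC and the CArG box lie side by side without overlapping.

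Among the transcription factors, Mef2c had the largest change of the 10 genes. MEF2C is a MADS-box factor that drives contractile genes in heart and skeletal muscle, and its gene lies at chr13:83504034-83667080 (plus strand). Its counts were 13 and 14 in the Undiff libraries, and 1429 and 1915 in the Day4 libraries. Both Day4 libraries were far above both Undiff libraries, with a mean normalized count of 15.1 ± 2.27 (SD, n = 2) in Undiff and 1482 ± 15.9 (SD, n = 2) in Day4. Its log2 fold change was 6.61 (SE 0.13, edgeR adjusted p = 4.3e-14).

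Nkx2-5 encodes a homeodomain factor that marks the early heart field, at chr17:26838664-26845009 (minus strand). Its counts were 2 and 0 in Undiff and 1 and 4 in Day4. All but 1 library were at or under the floor of 3 counts, the states overlapped, and a difference was not detectable at this depth (edgeR adjusted p = 0.50). A floor of 3 counts stands for between 0.0629 and 0.0935 CPM (counts scaled to the library total) in these libraries and covers counting error only.

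The Mef2 family was compared per length, as normalized counts per kilobase of the principal transcript. Mef2c made up 0.805% ± 0.148 (SD, n = 2) of the 4 Mef2 genes in Undiff and 23.0% ± 0.35 (SD, n = 2) in Day4. Mef2d went from 62.5% to 34.7% of the family although its own level rose. Its log2 fold change was 0.92 (SE 0.06, edgeR adjusted p = 7.1e-09), which is below the minimum for a DEG. Mef2a rose by a log2 fold change of 1.98 (SE 0.06, edgeR adjusted p = 3.4e-12) and made up 36.5% and then 42.4%. Mef2b held at most 1 count in each library. The share of Mef2c in Day4 was 17.4% with the length of all exons and 26.2% with the coding length.

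Of the myosin heavy chains, which form the motor of the thick filament, Myh6 and Myh7 are the heart isoforms. Myh6 encodes the alpha chain of the adult mouse ventricle and of the atria, and lies at chr14:54941921-54966927 (minus strand). Its counts were 536 and 518 in Undiff and 10 and 18 in Day4. Both Undiff libraries were far above both Day4 libraries, with means of 589 ± 43.3 and 12.1 ± 2.39 normalized counts (SD, n = 2 each) and a log2 fold change of -5.55 (SE 0.17, edgeR adjusted p = 3.4e-12).

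Myh7 encodes the beta chain, which the mouse ventricle uses before birth, and lies next to Myh6 at chr14:54970684-54994626 (minus strand). Its counts were 38 and 35 in Undiff and 2 and 10 in Day4. The Undiff libraries were higher than both Day4 libraries, which differed from each other, with means of 40.7 ± 1.61 and 4.88 ± 3.95 normalized counts (SD, n = 2 each). Its log2 fold change was -2.91 (SE 0.43, edgeR adjusted p = 3.2e-05), and -4.23 without Day4 replicate 2. Exons of Myh7 overlap the antisense RNA Mhrt, which had 2 counts in Undiff replicate 1 and 0 in the other libraries.

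Myh6 took 93.4% (exact Clopper-Pearson 95% interval, 91.0 to 95.3) and 93.7% (91.3 to 95.6) of the fragments on the pair in the Undiff libraries. In the Day4 libraries it took 83.3% of 12 fragments (51.6 to 97.9) and 64.3% of 28 fragments (44.1 to 81.4). The means were 93.5% ± 0.206 and 73.8% ± 13.5 (SD, n = 2 each), a difference of -19.7 percentage points (two-sided exact permutation p = 0.333, the smallest that 2 libraries against 2 allow). The difference was -29.2 points without Day4 replicate 1 and -10.2 points without Day4 replicate 2. Myh6 and Myh7 are close in sequence, and the authors counted only fragments that aligned to 1 place, so that their counts are uncertain where the genes are alike.

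Both genes host a miRNA in an intron, as does Myh7b, and the mature forms belong to a family that acts within heart and slow muscle. They are shown with the seed (bases 2 to 8) in capitals, because those of the Myh6 and Myh7 hosts have the same seed and that of Myh7b differs in it. The sequences are from RefSeq on GRCm38.p6. The rows of these miRNAs had 0 counts in all 4 libraries, which were not made for small RNA.

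miR-208a-3p, host Myh6: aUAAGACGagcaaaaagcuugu

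miR-208b-3p, host Myh7: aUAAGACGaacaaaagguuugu

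miR-499-5p, host Myh7b: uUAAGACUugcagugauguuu

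Among the 8 sarcomeric myosin heavy chains, per kilobase of the principal transcript, Myh3 (the embryonic skeletal chain) and Myh6 led in Undiff with 41.7% and 38.7%. In Day4 the leading chains were Myh7b with 36.5% and Myh1, a fast skeletal chain, with 35.2%, and Myh6 made up 12.7% ± 2.92 (SD, n = 2). These Day4 shares are parts of a small total. Myh7b itself fell, with means of 237 ± 46.2 and 35.3 ± 3.25 normalized counts (SD, n = 2 each) and a log2 fold change of -2.77 (SE 0.20, edgeR adjusted p = 1.9e-08). Exons of Myh7b overlap Trpc4ap on the other strand. Myh3 fell, with a log2 fold change of -7.60 (SE 0.21, edgeR adjusted p = 8.8e-13). Myh1 rose from counts at the floor to 36.6 and 30.7 normalized counts in the Day4 libraries, at least 10.02-fold higher (edgeR adjusted p = 2e-05).

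The myosin light chains bind the neck of the myosin heavy chain. Myl7 encodes the regulatory light chain of the atria, at chr11:5896637-5898782 (minus strand). Its counts were 125 and 100 in Undiff and 110 and 201 in Day4. The states overlapped after normalization, with means of 125 ± 7.50 and 135 ± 27.9 (SD, n = 2 each), and the log2 fold change was 0.13 (SE 0.17, edgeR adjusted p = 0.48). Without Day4 replicate 2 it was -0.15.

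Myl4 encodes the essential light chain of the atria and of the embryonic heart, at chr11:104550663-104595753 (plus strand). Its counts were 112 and 94 in Undiff and 346 and 450 in Day4. The replicates of each state were close and the states lay apart, with means of 115 ± 3.0 and 353 ± 11.3 normalized counts (SD, n = 2 each). The log2 fold change was 1.62 (SE 0.12, edgeR adjusted p = 1.9e-08). The gene Gm11665 lies within its span without sharing exons, with at most 12 counts in a library.

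Of the light chains of the ventricle, Myl2 was at 37.5 and 29.9 normalized counts in Undiff and had 0 counts in both Day4 libraries, at least 12.4-fold lower (edgeR adjusted p = 3.8e-06). Myl3 had 6.25 and 7.18 normalized counts in Undiff and 13.6 and 15.4 in Day4, a log2 fold change of 1.11 (SE 0.48, edgeR adjusted p = 0.049). Exons of both overlap a gene on the other strand. The call of Myl3 was lost in 9 of 12 alternatives, among them both DESeq2 fits and each of the fits that leave out 1 library, with an adjusted p of up to 0.32. Myl1, a fast skeletal light chain, had a log2 fold change of 0.18 and was not a DEG. Per kilobase of the principal transcript, Myl4 went from 0.972% to 2.34% and Myl7 from 1.70% to 1.42% of 8 light chains, of which the non-muscle chain Myl6 made up 79.4% and 90.3%. The shares of Myl7 overlapped between the states, at 1.81% and 1.58% in Undiff and 1.24% and 1.61% in Day4. With the length of all exons Myl7 went from 5.34% to 5.40%, Myl4 from 0.623% to 1.81% and Myl6 from 52.2% to 71.5%.

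The troponin complex sits on the thin filament. Tnni1 encodes the slow skeletal troponin I, which is also the isoform of the embryonic heart, at chr1:135779434-135810989 (plus strand). Its counts were 41 and 28 in Undiff and 567 and 881 in Day4. Both Day4 libraries were far above both Undiff libraries, with means of 38.1 ± 6.52 and 634 ± 59.5 normalized counts (SD, n = 2 each) and a log2 fold change of 4.05 (SE 0.15, edgeR adjusted p = 1.9e-11).

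Tnni3, the troponin I of the adult heart, went the other way, from 238 to 87.0 normalized counts, with a log2 fold change of -1.46 (SE 0.13, edgeR adjusted p = 3e-07). Its exons overlap Dnaaf3 on the other strand. Per kilobase of the principal transcript, Tnni1 went from 10.8% ± 0.854 to 78.8% ± 0.218 of troponin I (SD, n = 2 each), while Tnni3 made up 85.1% and 13.7%. Tnni1 was the second of the 3 troponin I genes in Undiff and the first in Day4 by each of the 3 lengths used, and its share in Day4 ranged from 71.8% to 84.4%. Tnni2, the fast skeletal troponin I, rose by 2.04 on the log2 scale (SE 0.39, edgeR adjusted p = 0.00034) and made up 4.13% and 7.45%. Of the troponin C genes, Tnnc1 of heart and slow muscle had a log2 fold change of 0.30 and was not a DEG. The fast skeletal Tnnc2 fell by 1.31 (SE 0.30, edgeR adjusted p = 0.0013), a call that was lost without Day4 replicate 2. Exons of Tnnc2 overlap Ube2c on the other strand.

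Tnnt2 encodes the troponin T of heart muscle, which ties the complex to tropomyosin, at chr1:135836354-135852260 (plus strand). Its counts were 16 and 7 in Undiff and 238 and 201 in Day4. The replicates differed within each state, but both Day4 libraries were above both Undiff libraries, with means of 12.5 ± 5.87 and 201 ± 66.7 normalized counts (SD, n = 2 each). The log2 fold change was 3.92 (SE 0.36, edgeR adjusted p = 2.9e-07), and 4.52 without Undiff replicate 1.

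Tnnt1, the slow skeletal troponin T, fell, with a log2 fold change of -1.59 (SE 0.11, edgeR adjusted p = 1.6e-08), and Tnnt3, the fast skeletal one, rose by 1.66 on the log2 scale (SE 0.18, edgeR adjusted p = 1.2e-06). Tnnt2 went from 2.56% ± 1.18 to 38.2% ± 6.60 of troponin T per kilobase of the principal transcript (SD, n = 2 each). By that length Tnnt2 was above Tnnt3 in Day4 replicate 1, at 42.8% against 32.4%, and below it in Day4 replicate 2, at 33.5% against 37.1%, so that the order of the pair was not settled. With the length of all exons Tnnt2 made up 14.6% in Day4 and ranked behind the other two.

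**Figure D2:**
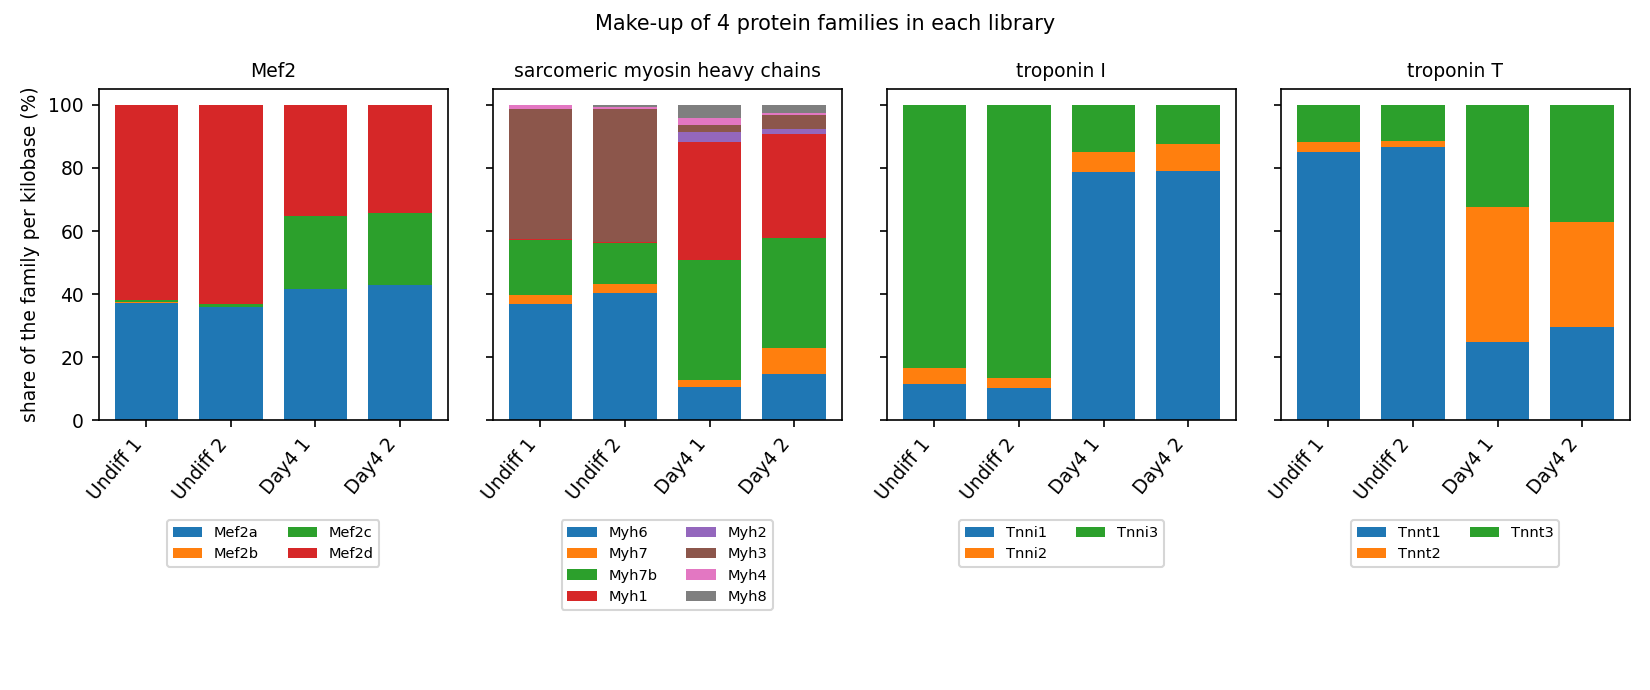
Share of each gene in its protein family (%), from normalized counts per kilobase of the principal transcript, with 1 stacked bar for each library. Mef2c, Tnni1 and Tnnt2 take up 23.0%, 78.8% and 38.2% of their families in Day4, and Myh6 goes from 38.7% to 12.7% of the sarcomeric myosin heavy chains.

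Actc1 encodes alpha-cardiac actin, the actin of the heart thin filament, at chr2:114047282-114053548 (minus strand). Its counts were 14 and 4 in Undiff and 23 and 42 in Day4. Both Day4 libraries were above both Undiff libraries at low counts, with means of 9.69 ± 6.93 and 28.1 ± 5.81 normalized counts (SD, n = 2 each). The log2 fold change was 1.51 (SE 0.44, edgeR adjusted p = 0.0069). It was no longer a DEG in DESeq2 with the authors' settings (log2 fold change 1.38, adjusted p = 0.070), nor without shrinkage (1.49, adjusted p = 0.071). In edgeR it was also no longer one without Undiff replicate 2 (0.97, adjusted p = 0.066) or without Day4 replicate 2 (1.22, adjusted p = 0.057), and it was 2.56 without Undiff replicate 1.

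Acta1, the skeletal alpha-actin, fell, with a log2 fold change of -4.03 (SE 0.31, edgeR adjusted p = 4.4e-08). The smooth muscle actins Acta2 and Actg2 rose by 2.55 (SE 0.13, edgeR adjusted p = 3.5e-10) and 3.27 (SE 0.21, edgeR adjusted p = 6.2e-09). Per kilobase of the principal transcript, Actc1 made up 0.0125% of 6 actins in Undiff and 0.0416% in Day4, and the non-muscle actins Actb and Actg1 made up 58.3% and 41.0% in Undiff. The actins are near-identical in their coding sequence, and fragments that fit more than 1 of them were left out of the counts.

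Actn2 encodes the alpha-actinin of the Z disc in heart and skeletal muscle, at chr13:12269426-12340760 (minus strand). Its counts were 475 and 469 in Undiff and 43 and 49 in Day4. Both Undiff libraries were far above both Day4 libraries, with means of 528 ± 46.8 and 41.3 ± 5.16 normalized counts (SD, n = 2 each) and a log2 fold change of -3.69 (SE 0.14, edgeR adjusted p = 3e-11). Actn3, the actinin of fast skeletal fibres, fell by 2.97 (SE 0.08, edgeR adjusted p = 6.7e-13), and the non-muscle Actn4 fell by 1.34 (SE 0.04, edgeR adjusted p = 2.7e-12). The non-muscle Actn1 had a log2 fold change of -0.70, which is below the minimum for a DEG. Actn2 made up 1.82% of the 4 actinins in Undiff and 0.323% in Day4, per kilobase of the principal transcript.

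**Figure D3:**
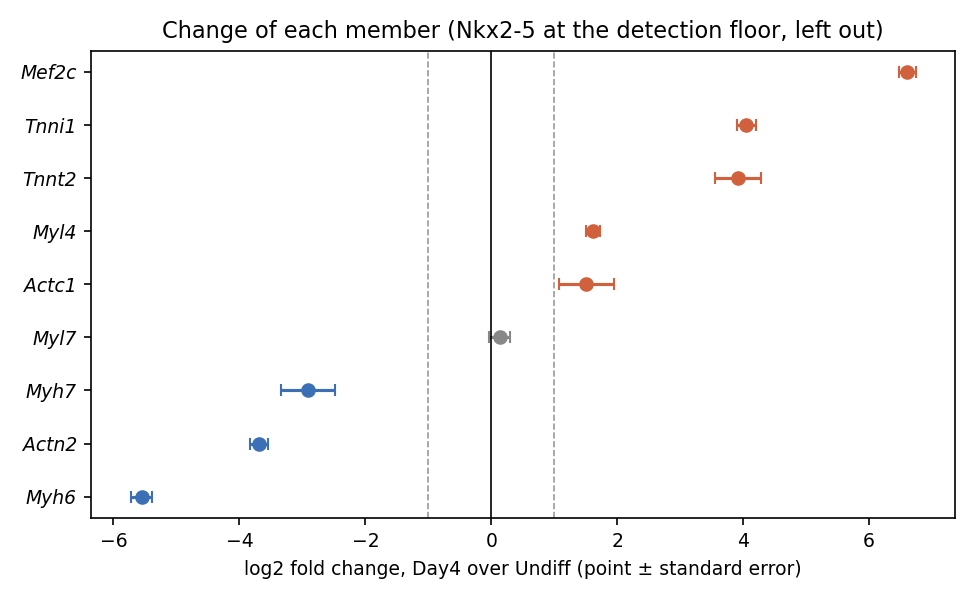
Log2 fold change of Day4 over Undiff on the horizontal axis for 9 of the 10 genes, with the standard error of the edgeR fit as bars and dashed lines at -1 and 1 (orange, DEG higher in Day4; blue, DEG lower in Day4; grey, not a DEG). Mef2c is at 6.61 and Myh6 at -5.55, with 5 genes above the upper line and 3 below the lower one.

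The levels of the 10 genes can be put in order only per length. Per kilobase of the principal transcript, the order in Undiff was Myl7 (212 normalized counts per kilobase), Actn2 (175), Myl4 (122), Myh6 (96.4), Tnni1 (33.1), Tnnt2 (10.4), Actc1 (6.58), Myh7 (6.54), Mef2c (5.85) and Nkx2-5 (0.683). Tnnt2, Actc1, Myh7 and Mef2c did not lie apart from their neighbours in that order. In Day4 the order was Mef2c (572), Tnni1 (552), Myl4 (375), Myl7 (228), Tnnt2 (168), Actc1 (19.1), Actn2 (13.7), Myh6 (1.98), Nkx2-5 (1.35) and Myh7 (0.784). Mef2c and Tnni1 overlapped there, as did Myl7 and Tnnt2, and the last 3 genes. The order changes with the length used, and with all exons Myl7 led in both states.

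The 2 pairs of members that lie side by side on a chromosome were compared with their neighbours. Tnni1 and Tnnt2 are 25.4 kb apart on chromosome 1 with Lad1, the ladinin gene, between them. Tnni1 and Tnnt2 rose, whereas Lad1 fell, with a log2 fold change of -1.76 (SE 0.08, edgeR adjusted p = 1.2e-10). On the outer sides, Csrp1 and Tmem9 rose by 1.11 and 1.99, Phlda3 had a log2 fold change of 0.58, and Pkp1, a desmosome gene, was lower with both Day4 libraries at the floor. Igfn1, between Pkp1 and Tmem9, had 0 counts in both Undiff libraries and 14 and 29 in Day4, at least 5.49-fold higher (edgeR adjusted p = 0.0001). The call of Pkp1 was lost without Undiff replicate 1, and that of Igfn1 without Day4 replicate 2. Myh6 and Myh7 are 3.8 kb apart on chromosome 14. Both fell, and their nearest outer neighbours with a moderate or high count, Efs and Ngdn, had log2 fold changes of -0.09 and -0.62 and were not DEGs. Il25 and Cmtm5, between Efs and Myh6, were DEGs at low counts, with means of 20.9 and 9.32 normalized counts in Undiff and both Day4 libraries at the floor. The call of Cmtm5 was lost in 4 of 12 alternatives, among them the fits without Undiff replicate 1 and without Undiff replicate 2.

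**Figure D4:**
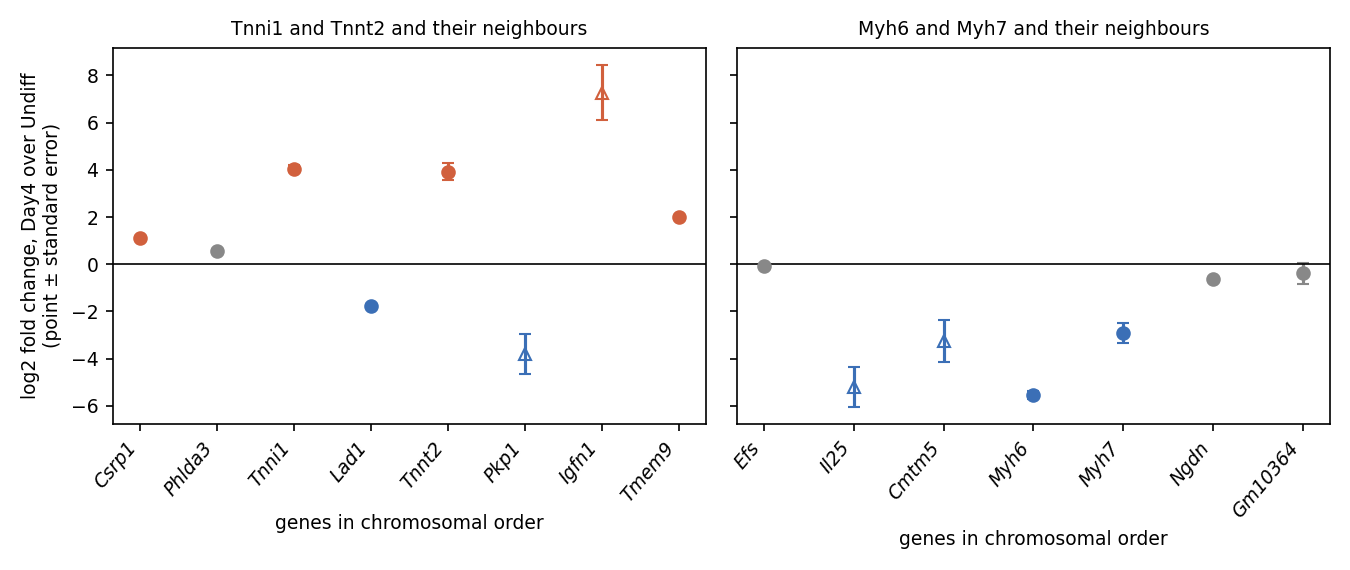
Log2 fold change of Day4 over Undiff (vertical axis, with standard errors) for the genes around each pair in chromosomal order, for those whose normalized count averaged 5 or more (orange, DEG higher; blue, DEG lower; grey, not a DEG; open triangle, 1 state at the floor, where the fitted value is not a measured size). Lad1 is at -1.76 between Tnni1 (4.05) and Tnnt2 (3.92), and Myh6 and Myh7 are at -5.55 and -2.91.

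The other genes of the heart were taken as 6 lists with 86 genes, 84 of which had a count, and 31 of these (36.9%) were DEGs higher in Day4 and 26 (31%) were DEGs lower, compared with 22.2% and 20.6% of all genes tested. Of 10 further thick filament genes, 3 rose (30%) and 6 fell (60%), with a median log2 fold change of -2.83. In the alternatives that lost the call of Myl3, 2 rose. Mylk3, the kinase of the heart light chain, rose by 2.63 (SE 0.34, edgeR adjusted p = 9.5e-06), and Ttn, the giant spring protein titin, fell, with a log2 fold change of -4.20 (SE 0.27, edgeR adjusted p = 5.2e-09). Of 8 thin filament genes, 1 rose (12.5%) and 2 fell (25%), near the shares of all genes, and the median was -0.65, or -0.03 with genes at the floor set to their bounds. Tmod1, which caps the thin filament, rose by 2.35 (SE 0.45, edgeR adjusted p = 0.00031). Tpm1, a tropomyosin also used outside muscle, had a log2 fold change of 0.64 and was not a DEG. Of 18 Z disc and cytoskeleton genes, 3 rose (16.7%) and 5 fell (27.8%), also near the shares of all genes, with a median of -0.29. Among those that fell, the call of Xirp2 was lost in 7 of 12 alternatives, including both DESeq2 fits. Flnc, which cross-links actin, rose by 1.82 (SE 0.04, edgeR adjusted p = 2e-13), Nebl, the heart nebulette, rose by 2.04 (SE 0.47, edgeR adjusted p = 0.0013), and Ldb3, a Z disc partner of alpha-actinin, fell by 3.54 (SE 0.15, edgeR adjusted p = 7.7e-11).

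Of 18 heart transcription regulators, 9 rose (50%) and 4 fell (22.2%), compared with 22.2% and 20.6% of all genes tested. The share that fell was thus near that of all genes. The median log2 fold change was 1.18, or 1.43 with genes at the floor set to their bounds. Hand2, a helix-loop-helix factor of the heart and limb, went from 3.96 ± 1.17 to 1137 ± 34.7 normalized counts (SD, n = 2 each), with a log2 fold change of 8.14 (SE 0.18, edgeR adjusted p = 1.1e-13). Gata6 rose by 7.09 (SE 0.10, edgeR adjusted p = 2e-15), and it is also used in endoderm. Hopx, a small homeodomain protein of heart muscle, fell by 4.52 (SE 0.21, edgeR adjusted p = 2e-10). Besides Hopx, the genes of this list that fell were Hand1 (log2 fold change -1.86), Mesp2 (-2.36) and Irx4. Irx4 was at least 9.44-fold lower, with both Day4 libraries at the floor. Tbx20 had a log2 fold change of 0.26 and was not a DEG. After their values were seen, 2 partners of NKX2-5, both with large rises, were added. Gata4 rose by 5.86 (SE 0.07, edgeR adjusted p = 6.4e-16), and Tbx5, at 1.04 and 0 normalized counts in Undiff and 919 and 1028 in Day4, was at least 290-fold higher (edgeR adjusted p = 4.6e-14). Nkx2-5 itself stayed at or near the floor in the same libraries.

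Of 21 tested genes of calcium handling and excitation, 13 rose and 4 fell, with a median of 2.00. Slc8a1, the sodium-calcium exchanger, rose by 5.94 (SE 0.13, edgeR adjusted p = 1.2e-13). Jph2, which couples the surface membrane to the calcium store, fell by 1.31 (SE 0.29, edgeR adjusted p = 0.0012), and the calcium pump Atp2a2, which many tissues use, fell, with a log2 fold change of -1.15 (SE 0.04, edgeR adjusted p = 8.2e-12). The number that fell was 2 without Day4 replicate 1, where Jph2 and Ryr2 lost their calls. Of 9 tested genes of heart hormones and muscle energy supply, 2 rose (22.2%, the share of all genes) and 5 fell (55.6%), with a median of -2.22. Nppa, the atrial natriuretic peptide, rose by 1.66 (SE 0.41, edgeR adjusted p = 0.0022), and Fabp3, the fatty acid binding protein of heart, fell by 4.40 (SE 0.09, edgeR adjusted p = 7.6e-14). The exons of Fabp3 overlap Zcchc17 on the other strand.

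**Figure D5:**
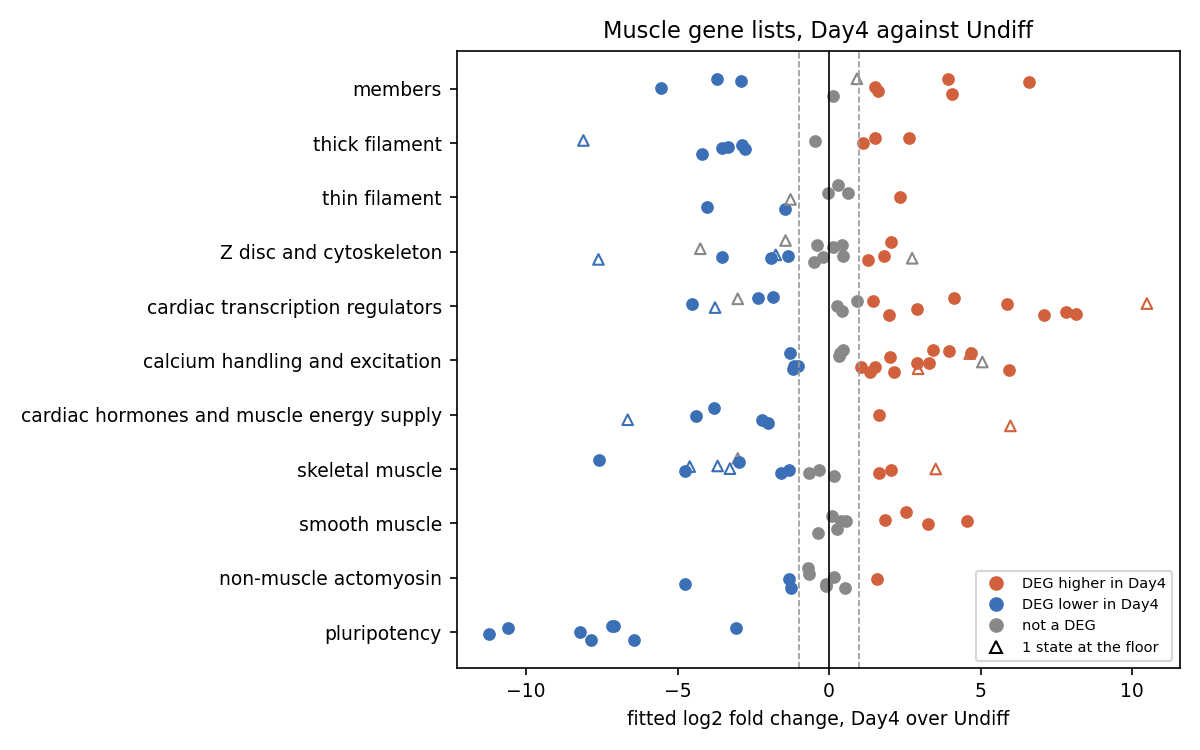
Fitted log2 fold change of Day4 over Undiff on the horizontal axis, 1 symbol per gene, for the 10 heart muscle genes and the 10 lists, with dashed lines at -1 and 1 and without genes at the floor in both states. Genes of calcium handling and of the transcription regulators lie mostly to the right (13 and 9 DEGs higher), the further thick filament genes mostly to the left (6 DEGs lower), and the 8 pluripotency genes all to the left.

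Markers of other cells moved with the same comparison, and their part in the levels of the 10 genes was not tested. All 8 pluripotency genes were DEGs lower in Day4, with a sum of 141071 and 144334 normalized counts in the Undiff libraries and of 790.8 and 666.4 in the Day4 libraries, so that the libraries matched their labels. Klf4 fell least, with a log2 fold change of -3.07 (SE 0.07, edgeR adjusted p = 3.2e-13), and Tdgf1 fell most, with -11.21 (SE 0.09, edgeR adjusted p = 4.6e-17). Pou5f1, which encodes the core factor OCT4, fell by 7.87 (SE 0.06, edgeR adjusted p = 4.6e-17). Of 18 skeletal muscle genes, 3 rose (16.7%) and 8 fell (44.4%), compared with 22.2% and 20.6% of all genes tested. Their sum went from 4147 and 4335 to 647.7 and 634.9. The largest parts of the Undiff sum were Actn3, described above, and Mylpf, a fast skeletal light chain, which fell by 4.77 (SE 0.12, edgeR adjusted p = 6e-13). Of the 18 genes, 4 were at the floor in Undiff and 7 in Day4. The transcription factors Myod1, Myf5, Myf6 and Myog had low counts in both states and were not DEGs. Myod1 had 5 and 3 counts in Undiff and 0 and 1 in Day4, and Myf5 had 1 and 2, then 0 and 0. Myf6 had 2 and 1 counts in Undiff and 0 and 2 in Day4, and Myog had 7 and 7, then 6 and 5. Pax7 was a DEG, with 12 and 11 counts in Undiff and 1 and 1 in Day4. Of 9 smooth muscle genes, 4 rose (44.4%) and none fell, and their sum went from 5029 and 5031 to 9400 and 11244. Mylk, the myosin light chain kinase of smooth muscle, rose by 4.54 (SE 0.14, edgeR adjusted p = 2.5e-12), Myl9, its substrate in smooth muscle, rose by 1.84 (SE 0.09, edgeR adjusted p = 2.8e-10), and Tagln had a log2 fold change of 0.09 and was not a DEG. None of the 9 was at the floor in either state. Of 10 non-muscle actomyosin genes, 1 (10%) rose (Myh10, by 1.57) and 3 (30%) fell (Myh14, with a log2 fold change of -4.76, Actn4 and Myh9). The 10 heart muscle genes together went from 1430 and 1518 to 2893 and 2895 normalized counts. Mef2c alone went from 13.5 and 16.8 to 1493 and 1470, a rise about as large as that of the sum. The sum therefore does not show a rise of the group.

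Each library held between 32099074 and 47730944 fragments on genes, and the biological coefficient of variation over genes was 3.66%. The share of fragments assigned to no gene was higher in the Undiff libraries (12.1% and 13.2%) than in the Day4 libraries (7.50% and 7.74%). The labels name both a poly(A) kit and a strand-specific kit that depletes ribosomal RNA, and the methods name the first. With 2 libraries in a state, adjusted p-values rest on a spread that edgeR estimates jointly over genes.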

How the data were processed

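RNA of Undiff and Day4 was sequenced as paired-end TruSeq libraries. The methods name a poly(A) kit, and the labels name this kit and a stranded one that depletes ribosomal RNA. Per the labels and the methods, the authors ran cutadapt, then STAR 2.4.2a on mm10, and htseq-count on unique alignments. The deposited values are raw counts per gene symbol, without normalization. The strand option used for counting genes in TruSeq libraries is not given in the sources used here, so that genes overlapping on opposite strands are uncertain. Besides the genes marked above, this applies to Mef2a, Mef2d, Tmod1, Gata6, Actn4, Tagln and Mylk. Summary lines that name no gene were left out of library sizes and tests. Here counts were normalized by TMM and tested across all 19891 genes with a count with edgeR 4.0.16 (quasi-likelihood, bias-adjusted deviances) in R 4.3.3, with Benjamini-Hochberg adjustment. Normalized counts are counts divided by the effective library size (total times TMM factor), times the geometric mean of these sizes, and the SE is the log2 fold change divided by the square root of F. The floor is 3 counts per library, and a fold against a state at the floor in both libraries is a bound. DESeq2 1.42.0 with the authors' settings was an alternative. The other alternatives were DESeq2 without shrinkage, DESeq2's size factors or library totals in edgeR, filterByExpr, a replicate block, no minimum fold change, other lengths, and leaving out each library.

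The members and lists were chosen with earlier results of these data known. Named were all members, their paralogues, and from each list the highest and lowest log2 fold change among DEGs above the floor in both states, and the highest count per kilobase. Genes named outside this rule were Gata4 and Tbx5, the myosin heavy chains, genes neighbouring or overlapping a member, and genes named without a list. So were the list members Myod1, Myf5, Myf6, Myog, Pax7, Hand1, Mesp2, Irx4, Tbx20, Xirp2, Myh9 and Ryr2. Positions and lengths are of GENCODE vM21 on GRCm38, the assembly of mm10. Promoter and miRNA sequences are of RefSeq on GRCm38.p6, where all 10 members matched. Motifs were searched on both strands. The test was checked on simulated data in which few genes were changed, none of them at low counts, and all genes had the same spread. How well it finds changes at low counts was not checked there. The intervals cover counting error only.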

Additional observations from a re-analysis of the deposited data

How the results depend on the processing

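Of 288 alternative values for the counts of DEGs among the members and lists, 284 stayed within 1.5 times the reported count. Without a minimum fold change, 2 thin filament genes were higher in place of 1, and 3 non-muscle actomyosin genes were higher and 6 lower in place of 1 and 3. This alternative calls smaller changes by construction. When 1 library was left out, the calcium handling genes that were lower ranged from 2 to 4. The number of members higher ranged from 4 to 5 over all alternatives, and the number lower was 3 in each. Of 109 alternative log2 fold changes of members, 103 kept their direction and their side of the threshold. Those that did not were 4 of Actc1, which lost its call as described, and 1 each of Nkx2-5 and Myl7, which are not DEGs. When 1 library was left out, Nkx2-5 ranged from -0.11 to 4.27 and Myl7 from -0.15 to 0.30, both lowest without Day4 replicate 2. Myh7 ranged from -4.23 to -2.39 and Tnnt2 from 3.54 to 4.52. The cause was not tested. When a state kept 1 library, it was assumed to vary like the other state. The fit of the quasi-likelihood test without bias-adjusted deviances and the scaling to the principal transcript were chosen after seeing the data. The difference between the replicates had a correlation of -0.01 between the states over genes, so that the replicate numbers pair nothing that the data show. With a replicate block 8515 genes were DEGs, compared with 8521, and 5 members were higher and 3 lower. The depth limits what can be said of Nkx2-5 and of the balance of Myh6 and Myh7 in Day4, which rests on 12 and 28 fragments.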

Other observations

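The members do not share 1 profile. The mean of their centred profiles (log2 of the normalized count plus 1, minus the mean of the gene over the 4 libraries) was -0.13 and -0.51 in the Undiff libraries and 0.18 and 0.46 in the Day4 libraries, an average over genes that moved in opposite directions. Among genes that averaged 10 CPM or more, the 5 nearest to this mean by Euclidean distance over the 4 libraries were Lars2 (distance 0.17), Mcu (0.172), Suox (0.18), Cdon (0.186) and Fam171b (0.192). These are distances to an average and to no single member.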
